A study of Mus musculus with 58 samples.

Results

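The 8 genes described here carry the Norrin and Wnt signal: the ligand Ndp, the receptor Fzd4, the coreceptors Lrp5 and Lrp6, the coactivator Tspan12, the transducer Ctnnb1 and the nuclear readout genes Axin2 and Lef1. They were taken by symbol from the count table of the whole retina, as 8 of its 52459 gene symbols, from a list drawn up with earlier results of these data known. All 8 were among the 19120 genes that passed the expression filter, a median above 4 normalized counts over all 58 libraries, so each member could be tested in every comparison.

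Norrin, the protein of Ndp, is secreted by Müller glia and binds Frizzled 4 together with Lrp5 or Lrp6 on endothelial cells, and the tetraspanin Tspan12 strengthens this response. The signal stops the destruction of β-catenin, the protein of Ctnnb1, which then enters the nucleus and binds TCF/LEF factors such as Lef1 to switch on target genes. Axin2, a scaffold of the complex that destroys β-catenin, is one of these targets and limits the signal. In the retina the pathway drives the growth of the capillary network and maintains the blood-retina barrier, and mutations of NDP, FZD4, LRP5 and TSPAN12 cause human disorders of retinal vessel growth.

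The diabetic group (28 libraries) consisted of male Ins2Akita mice (C57BL/6-Ins2Akita/J), which carried 1 copy of the Akita mutation of the insulin 2 gene and were hyperglycaemic. The mutation is dominant, makes misfolded insulin and damages pancreatic beta cells. The control group (30 libraries) consisted of their wild-type male littermates on the same C57BL/6 background. All mice were 4 months old, lived under 12 h of light and 12 h of darkness and were perfused with saline before the retinas were removed. Each library came from 1 retina collected at zeitgeber time (ZT, hours after lights on) 1, 5, 9, 13, 17 or 21, with 5, 6, 5, 5, 5 and 4 control libraries and 5, 5, 5, 4, 4 and 5 diabetic libraries at these times. Night samples were dissected under dim red light, so that the light during dissection and the time of day cannot be told apart. The libraries were described as biological replicates, and whether 2 retinas of 1 mouse were included is not given in the sources used here.

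Between 7773117 and 22147398 reads were counted on genes per library. The libraries held rod markers in every sample (summed level of 6 genes between 33470 and 52040 CPM, counts scaled to library size), endothelial markers of all 10 listed genes (347 to 430.4 CPM) and almost no red blood cell markers (0 to 13.2 CPM). Pigment epithelium, the layer behind the retina, varied widely, with a summed level of its 7 markers between 18.0 and 215 CPM, and 3 control libraries (ZT1 replicate 6, ZT17 replicate 5 and ZT21 replicate 2) stood apart with lens markers between 1523 and 2203 CPM. The libraries also differed in how strongly the level of a gene followed its GC content, and the slope of this trend was highest on average at ZT17 in control (a mean of 0.141 log2 units per 10 percentage points of GC, SD 0.247, n = 5) and diabetic retinas (0.102, SD 0.204, n = 4). In whole retina, fewer cells of a type and less RNA per cell cannot be told apart.

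The promoters of Fzd4, the receptor, whose level is compared between genotypes and times in most detail, and of Axin2, the target gene of the pathway, are shown as RefSeq gives them on GRCm38.p6, from 250 bases before to 50 bases after the transcription start. Capitals mark matches to the GC box GGGGCGGGG, searched on both strands. The Fzd4 promoter is at chr7:89404116-89404415 on the plus strand and the Axin2 promoter at chr11:108920099-108920398 on the plus strand.
Fzd4: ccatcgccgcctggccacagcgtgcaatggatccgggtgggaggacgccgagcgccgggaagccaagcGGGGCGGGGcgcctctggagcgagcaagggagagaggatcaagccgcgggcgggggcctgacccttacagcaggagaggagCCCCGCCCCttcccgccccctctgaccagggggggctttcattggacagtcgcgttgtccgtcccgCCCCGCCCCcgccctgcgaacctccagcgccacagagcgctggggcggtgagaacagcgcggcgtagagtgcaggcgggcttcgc
Axin2: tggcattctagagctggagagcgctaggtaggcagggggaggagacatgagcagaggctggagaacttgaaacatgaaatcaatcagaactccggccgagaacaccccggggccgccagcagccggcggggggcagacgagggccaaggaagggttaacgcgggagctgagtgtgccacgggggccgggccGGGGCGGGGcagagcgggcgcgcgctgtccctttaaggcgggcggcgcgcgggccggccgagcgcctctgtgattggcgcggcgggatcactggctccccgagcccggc
The Fzd4 promoter had a GC content of 72.7% and held 3 GC boxes, at -182, -101 and -35 from the start, and the Axin2 promoter (70%) held 1, at -59. A GC box was found in 11.4% of 32851 mouse promoters of the same length. Neither sequence held the clock motifs CACGTG (E-box, in 7.15% of promoters) or TTATGTAA (D-box, in 0.938%), or the TCF/LEF motif CTTTGAT (in 3.73%), on either strand. The Ndp and Tspan12 promoters had a GC content of 43% and 44% and none of the 4 motifs. Both Ctnnb1 promoters held GC boxes (2 and 1), but their windows overlap and share 1 of these boxes. Of 4 Lef1 promoters 1 held an E-box and each of the others 1 GC box, which is the same box where their windows overlap. Matches describe these letters only. The promoters of Lrp5 and Lrp6 were not analysed here.

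The members spanned a wide range of expression per length, given as reads per kilobase of merged exons scaled to library size (RPKM; mean ± SD over 58 libraries). Ctnnb1, which also links cadherins to the cytoskeleton in most cells, was the highest at 51.3 ± 4.15 RPKM, above 97.5% of all genes tested. Lrp6 followed at 10.7 ± 0.582 RPKM, Axin2 at 8.55 ± 0.912 RPKM and Fzd4 at 5.04 ± 0.720 RPKM. Ndp reached 2.62 ± 0.482 RPKM, Tspan12 1.92 ± 0.399 RPKM, Lrp5 1.70 ± 0.259 RPKM and Lef1 0.466 ± 0.10 RPKM. In this order only Ctnnb1 and Lrp6, and Lrp5 and Lef1, were neighbours whose libraries did not overlap, and the other 5 neighbouring pairs overlapped in their range. Of the coreceptors, Lrp6 thus had the higher level per length in every library (lowest 9.55 RPKM, against a highest of 2.42 RPKM for Lrp5).

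**Figure D1:**
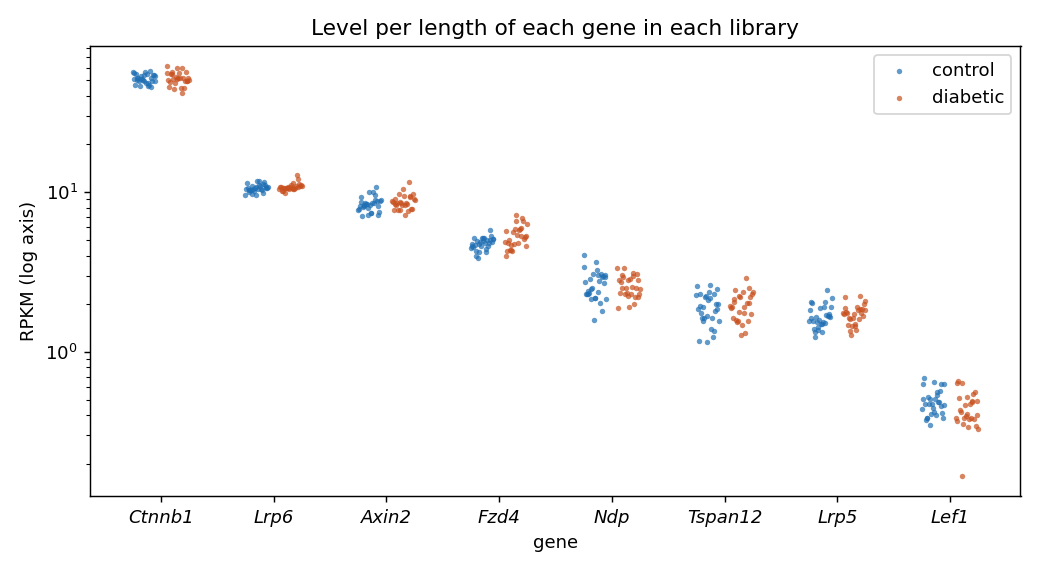
Level of each member in each library, as RPKM on a log axis, with 1 point per library and genotypes side by side. Ctnnb1 lay between 41.9 and 61.1 RPKM and Lef1 between 0.168 and 0.682 RPKM, with the other 6 genes between them.

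On GRCm38 with Gencode M21, the members are protein-coding genes: Ndp lies at chrX:16885521-16911774, Fzd4 at chr7:89404355-89413134, Lrp5 at chr19:3584828-3686564 and Lrp6 at chr6:134446476-134566965. Tspan12 lies at chr6:21771395-21852515, Ctnnb1 at chr9:120929216-120960507, Axin2 at chr11:108920349-108950783 and Lef1 at chr3:131110471-131224356. Lef1, Ndp and Tspan12 had on average 62.0, 75.3 and 95.1 reads per library, and their levels varied by 21.5%, 18.4% and 20.8% (coefficient of variation over 58 libraries). Lrp6 with 2186 reads varied by 5.45% and Ctnnb1 with 3966 reads by 8.08%. Exons of Ctnnb1 overlap Ulk4 on the opposite strand (372 reads on average), and the counting is not stated to use strand, so reads of the overlap cannot be told apart.

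Between the genotypes over all time points, 1 of the 8 members passed the test, Fzd4, which was higher in diabetic retinas (edgeR quasi-likelihood test, Benjamini-Hochberg adjusted p under 0.05). Over all genes tested 2.99% passed, 1.58% higher and 1.41% lower in diabetic retinas. The median log2 fold change of all genes tested was 0.0012, and the members ranged from -0.14 for Lef1 to 0.16 for Fzd4.

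Fzd4 encodes the receptor that binds Norrin with high affinity. At ZT1 the control libraries had 436, 443, 446, 457 and 500.5 normalized counts and the diabetic libraries 387, 413, 463, 468 and 554. At ZT5 the control libraries ranged from 376 to 478 with a median of 410.7, and the diabetic libraries had 414.5, 419, 419, 451 and 486. At these 2 times the groups lay over each other, with means of 456.5 and 457.1 at ZT1 and of 418 and 438 at ZT5 in control and diabetic retinas.

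At ZT9 the control libraries had 447, 455, 471.5, 497.5 and 504 normalized counts of Fzd4 and the diabetic libraries 458.5, 542, 576, 639.7 and 700.5. At ZT13 the values were 411, 429, 469.5, 482 and 499 in control and 468, 525, 559 and 574 in diabetic retinas. At ZT17 they were 446, 469.8, 486, 490.1 and 560.4 in control and 516, 579, 645 and 662 in diabetic retinas. At each of these 3 times the ranges still overlapped, but 4 of 5, 3 of 4 and 3 of 4 diabetic libraries were above every control library of that time. At ZT21 the control libraries had 469, 492, 492 and 515 and the diabetic libraries 446, 496, 507.5, 517 and 613, again with overlap.

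Over all times the control libraries had a mean of 463 ± 40.0 (SD, n = 30; lowest 376, median 469.5, highest 560.4) and the diabetic libraries of 518 ± 83.7 normalized counts of Fzd4 (n = 28; lowest 387, median 512, highest 700.5), with 8 diabetic libraries above the highest control library. The log2 fold change was 0.16 (SE 0.047, 95% interval 0.070 to 0.25, 1.12-fold) with an adjusted p of 0.0391 from the edgeR model of all genes. These p-values measure the spread between libraries. The log2 fold change was small at ZT1 (0.0050), ZT5 (0.064) and ZT21 (0.064) and larger at ZT9 (0.29), ZT13 (0.22) and ZT17 (0.29). The unadjusted p from edgeR was 0.0018, 0.0232 and 0.0025 at ZT9, ZT13 and ZT17, and the adjusted p was 0.521, 0.9999 and 0.200, so that none passed at a single time.

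The adjusted p of Fzd4 over all time points was close to the threshold. It was 0.0278 with DESeq2 and 0.0721 without the expression filter. It rose to between 0.0501 and 0.0694 when any 1 of 18 libraries was left out (control ZT1 replicate 1, ZT5 replicates 2, 3, 5 and 6, ZT13 replicate 5 and ZT17 replicate 2, and diabetic ZT1 replicate 2, ZT9 replicates 1, 3, 4 and 5, ZT13 replicates 4 and 5, ZT17 replicates 1, 4 and 5 and ZT21 replicate 5), stayed under 0.05 in the other 40 of 58 such fits, and was 0.181, 0.133, 0.157 and 0.0816 without ZT9, ZT13, ZT17 and ZT21. Without the 3 libraries of highest GC slope it was 0.0514. The log2 fold change was between 0.13 and 0.20 in these and the other alternative fits of this contrast. With the summed pigment epithelium markers as a covariate the log2 fold change was 0.19 (adjusted p = 0.0062), and without the 3 lens libraries 0.18 (adjusted p = 0.0312).

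**Figure D2:**
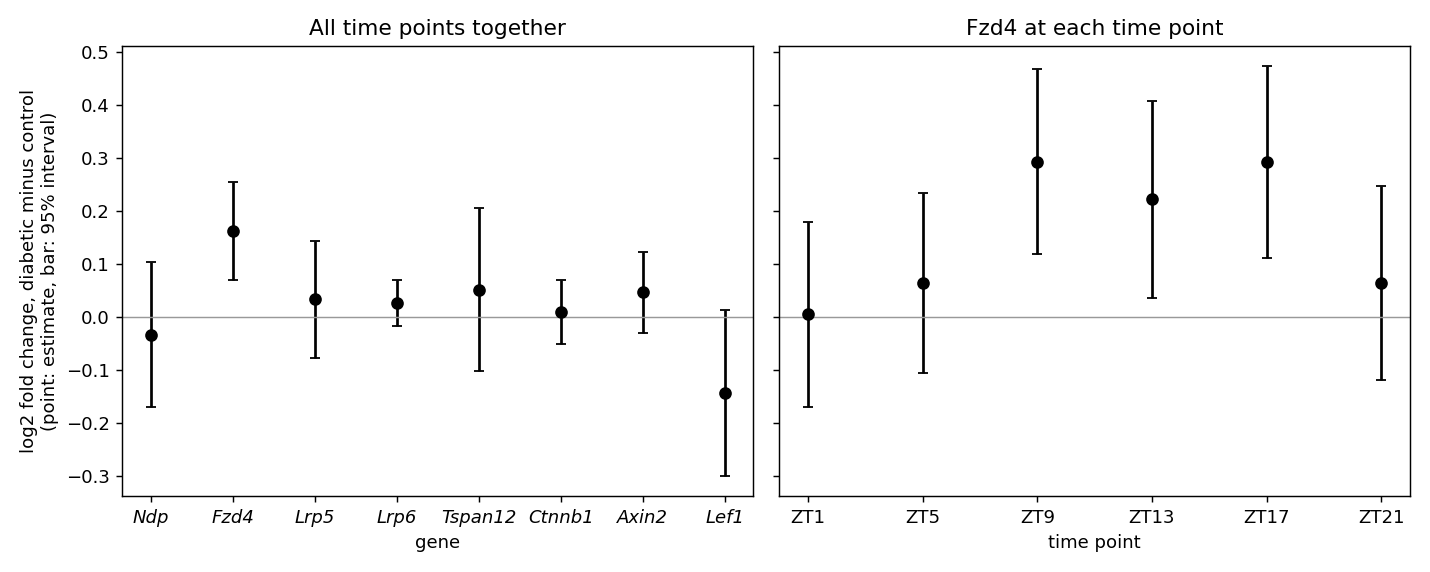
Log2 fold change of diabetic minus control retinas with its 95% interval, for the 8 members over all time points (left) and for Fzd4 at each time point (right). The interval of Fzd4 was above 0 over all time points and at ZT9, ZT13 and ZT17, while the intervals of the other 7 members over all time points included 0.

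The other members of the receptor complex did not pass the test between the genotypes. Ndp, the ligand, had 74.2 ± 15.3 normalized counts in control and 72.4 ± 11.5 in diabetic retinas (log2 fold change -0.034, 95% interval -0.17 to 0.10, adjusted p = 0.896). Lrp5 had 236 ± 39.4 and 242 ± 34.7 (0.033, -0.077 to 0.14, adjusted p = 0.866), Lrp6 2093 ± 115 and 2131 ± 117 (0.027, -0.017 to 0.070, adjusted p = 0.637) and Tspan12 90.3 ± 19.7 and 93.2 ± 18.8 (0.051, -0.10 to 0.20, adjusted p = 0.846). The interval was narrowest for Lrp6 and widest for Tspan12.

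Downstream of the receptor no member passed either. Ctnnb1 had 3839 ± 255 normalized counts in control and 3865 ± 373 in diabetic retinas (log2 fold change 0.0094, 95% interval -0.052 to 0.070, adjusted p = 0.941), and Axin2 669.7 ± 72.4 and 692 ± 74.7 (0.046, -0.030 to 0.12, adjusted p = 0.648). Lef1 was the member with the second largest estimate, 62.0 ± 11.5 in control (lowest 43.6, median 60.3, highest 86.9) and 56.0 ± 13.6 in diabetic retinas (lowest 21.3, median 52.6, highest 82.8), a log2 fold change of -0.14 (SE 0.080, interval -0.30 to 0.013, unadjusted p = 0.0772, adjusted p = 0.393). Its mean was lower in diabetic retinas at each of the 6 time points, but the libraries of the genotypes overlapped at each of them.

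At single time points, 0 of the 8 members passed in any of the 6 comparisons, both with edgeR and with DESeq2. Of all genes tested edgeR called 0.0105% for ZT1, 0.0209% for ZT5, 0.00523% for ZT9, 0% for both ZT13 and ZT21, and 0.167% for ZT17 (0.0628% higher and 0.105% lower in diabetic retinas). Below an unadjusted p of 0.05 in edgeR there was 1 member at ZT9 (4.49% of all genes), 1 at ZT13 (4.46%) and 2 at ZT17 (8.82%), and 0 at ZT1 (5.5%), ZT5 (6.15%) and ZT21 (4.67%). Fzd4 was the member each time, joined at ZT17 by Lrp6 (edgeR, log2 fold change 0.11, adjusted p = 0.549). Lrp6 at ZT17 had 1951, 2034, 2176, 2212 and 2261 normalized counts in control and 2097, 2170, 2391 and 2528 in diabetic retinas, with 2 diabetic libraries above all controls. At ZT21 its 5 diabetic libraries (2139, 2145, 2175, 2205 and 2233) were all above its 4 control libraries (2088, 2094, 2119 and 2138), by a log2 fold change of 0.042 (SE 0.053, edgeR adjusted p = 0.9999). The nearest libraries had 2139 and 2138, and the share of all genes whose libraries separated in this way was not computed.

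**Figure D3:**
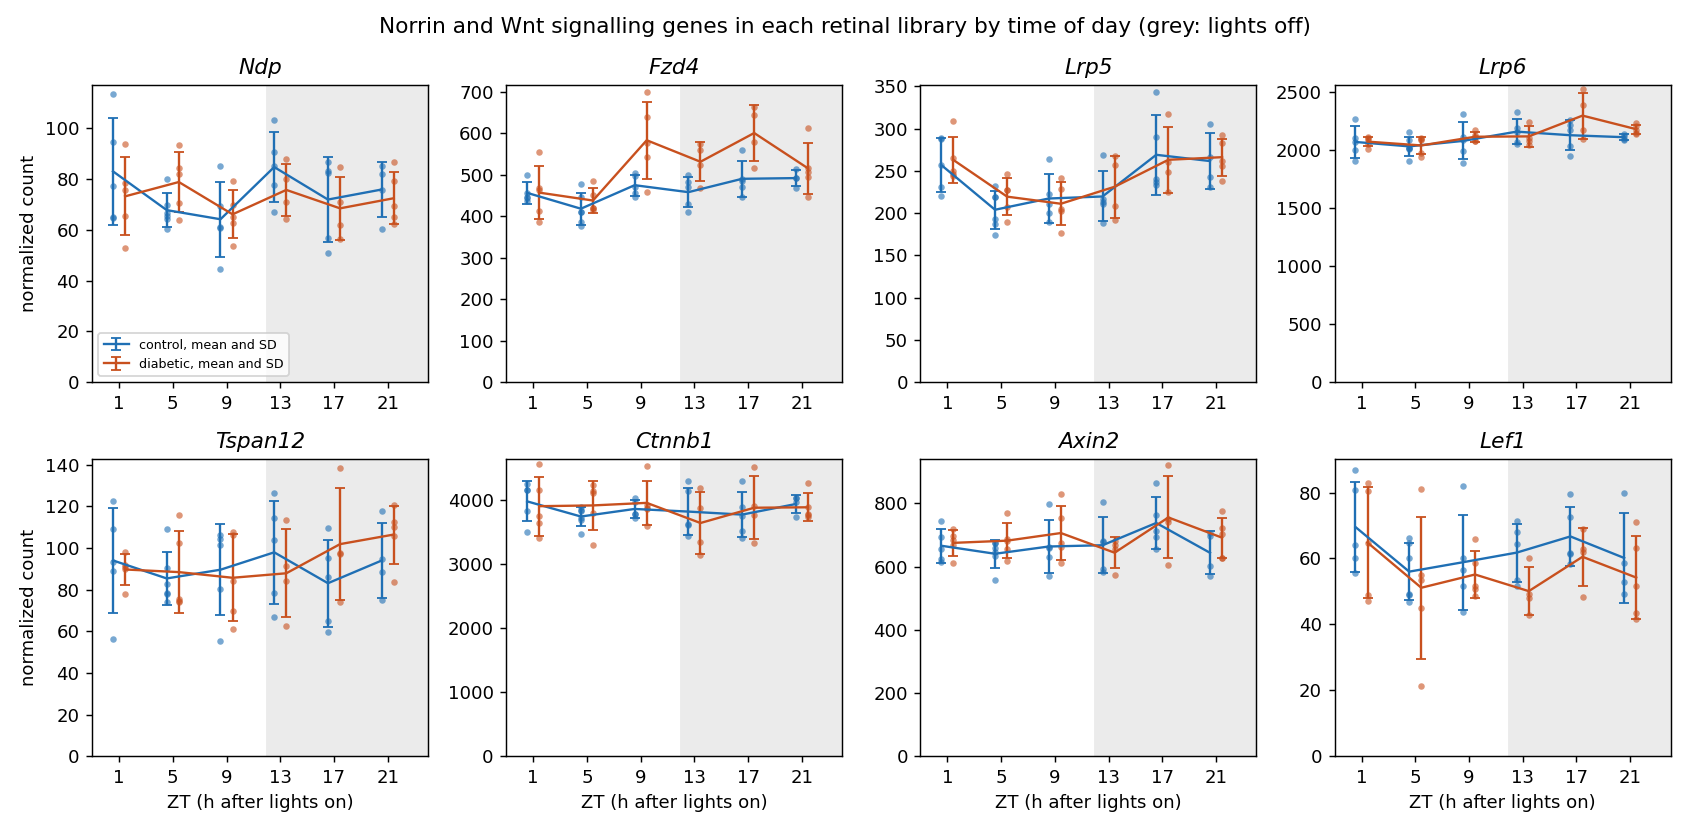
Normalized counts of the 8 members in every library against ZT, with the mean and SD of each genotype and time point and the dark phase in grey. Fzd4 was higher on average in diabetic retinas from ZT9 to ZT17, with means of 583, 532 and 601 against 475, 458 and 490.4, and Lrp5 rose from ZT5 and ZT9 to ZT17 and ZT21 in both genotypes.

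The time of day was tested within each genotype with a cosine of 24 h, whose log2 amplitude is the distance from its mean to its peak, and whose peak time is called the acrophase. Lrp5 was rhythmic in both genotypes and Fzd4 in diabetic retinas. In control retinas 1 of 8 members passed, against 11% of all genes tested, and in diabetic retinas 2 of 8, against 12.4%. The 1 member that passed in both genotypes stood beside 6.01% of all genes tested. Below an unadjusted p of 0.05 there were 2 members in control (25.4% of all genes) and 3 in diabetic retinas (26.5%), and the rank test with its minimum fold called 1 (21.8%) and 3 (23.9%). The median log2 amplitude of all genes tested was 0.10 in both genotypes.

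Lrp5, a coreceptor required for Norrin signalling in retinal vessels, had its highest mean at ZT17 in control and at ZT21 in diabetic retinas. In control retinas it had 220.3, 231, 257, 288 and 289 normalized counts at ZT1, between 174 and 232 with a median of 205.7 at ZT5, and 190.0, 201, 210.4, 222 and 263.5 at ZT9. At ZT13 it had 188, 211, 214, 217 and 268.5, at ZT17 234, 237, 241, 291 and 343, and at ZT21 231, 243, 266.5 and 306. The 5 control libraries of ZT17 were all above the 6 of ZT5, with means of 269 and 204, the highest and the lowest of the 12 groups of Lrp5. These groups were picked as the extremes, and the share of all genes whose extreme groups do not overlap was not computed.

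In diabetic retinas Lrp5 had 244, 246, 250.0, 266 and 308.5 normalized counts at ZT1, 189, 207, 227, 228 and 246 at ZT5 and 177, 202, 205, 229 and 242 at ZT9. It had 192, 208.5, 257 and 267 at ZT13, 225.5, 249, 261 and 317 at ZT17 and 237.5, 255.5, 262, 283 and 292.5 at ZT21. The order of the times was thus close to that of control retinas, with low values at ZT5 and ZT9 and high values from ZT17 to ZT1.

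The fitted amplitude of Lrp5 was 0.21 (SE 0.047) on the log2 scale in control retinas, a peak 1.33-fold above the trough, with an acrophase of ZT20.04 (SE 0.891 h) and an adjusted p of 0.0128 from edgeR. In diabetic retinas it was 0.19 (SE 0.044, 1.295-fold) with an acrophase of ZT20.6 (SE 0.898 h) and an adjusted p of 0.0108. The difference between the genotypes in the rhythm was not significant in edgeR (acrophase 0.542 h later in diabetic retinas, adjusted p = 0.9998). The rank test of the study, re-implemented here with a permutation null, gave p = 0.0035 in control and 0.0037 in diabetic retinas for Lrp5.

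The level of Lrp5, whose exons hold 54.7% GC, moved with the GC trend of the libraries (Pearson's r = 0.691 over 58 libraries, Spearman's rho = 0.673, permutation p = 1e-05 for both, the smallest that the permutations can give, adjusted p = 4e-05 over 8 genes). The correlation was 0.610 without the 2 libraries farthest from the median slope and 0.751 after the mean of each group was subtracted. With the slope of the GC trend as a covariate the amplitude of Lrp5 was 0.15 in control (adjusted p = 0.0067) and 0.16 in diabetic retinas (adjusted p = 0.0053). The control rhythm of Lrp5 lost its call without ZT17 (adjusted p = 0.0860) or ZT5 (0.117) and the diabetic rhythm without ZT9 (0.102), and a test of any difference among the 6 times gave adjusted p = 0.0611 and 0.0867.

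Fzd4 was rhythmic in diabetic retinas with a log2 amplitude of 0.21 (SE 0.048, 1.33-fold), an acrophase of ZT14.4 (SE 0.877 h) and an adjusted p of 0.0132 from edgeR. In control retinas the amplitude was 0.084 (SE 0.030, 1.12-fold), the acrophase ZT17.4 (SE 1.40 h) and the adjusted p 0.142. The difference between the 2 rhythms was tested by itself with edgeR and did not pass, with an acrophase 3.06 h earlier and an amplitude 0.12 higher in diabetic retinas (adjusted p = 0.9998), so the rhythm of Fzd4 was not shown to differ between the genotypes. The highest and lowest groups of Fzd4, diabetic ZT17 (mean 601) and control ZT5 (mean 418), did not overlap and differed 1.44-fold, but each group mean lay within 1 SD of the next in the order of the 12 groups. These 2 groups too were picked as the extremes, without a share over all genes to set beside them. The permutation-based rank test gave p = 0.0016 in diabetic and 0.0546 in control retinas.

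Pigment epithelium markers varied with time of day too. Of the 7 markers, 5 were rhythmic in both genotypes, with acrophases from ZT14.0 to ZT16.3 (control) and from ZT15.5 to ZT16.6 (diabetic), Best1 and Pmel did not pass in either, and none of the 7 was at 0. The means of their summed level at ZT1, ZT5, ZT9, ZT13, ZT17 and ZT21 were 44.3, 54.2, 119.9, 101.1, 117 and 151 CPM in control and 42.3, 21.7, 76.5, 138.1, 85.0 and 138.2 CPM in diabetic retinas. In diabetic retinas both the sum and Fzd4 had their lowest means at ZT5 and ZT1, and from ZT9 to ZT21 their means did not follow the same order. The summed level correlated with Fzd4 over the 58 libraries (r = 0.360, permutation p = 0.0050, rho = 0.407, p = 0.0017, adjusted p = 0.0233 and 0.0146 over 56 relations, r = 0.369 without the 2 farthest libraries), and within groups r was 0.0857. Fzd4 rose as well with the summed level of the 9 Müller glia markers (r = 0.358, rho = 0.445, permutation p = 0.0065 and 0.00051, adjusted p = 0.028 and 0.0071, r = 0.331 without the 2 farthest libraries and 0.154 within groups). The Müller glia sum had its highest mean at ZT17 in both genotypes, 4416 ± 210.1 CPM (n = 5) in control and 4383 ± 408 CPM (n = 4) in diabetic retinas, and its part in the rhythm of Fzd4 was not tested. With the summed pigment epithelium markers as a covariate the amplitude of Fzd4 in diabetic retinas was 0.21 with an adjusted p of 0.0995, and in control retinas 0.051 with an adjusted p of 0.538. The call was also lost without ZT1 (adjusted p = 0.0764), ZT5 (0.121) or ZT17 (0.109), and in control retinas Fzd4 passed without ZT9 (0.0354).

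Lrp6 came closest of the others, with a log2 amplitude of 0.068 (SE 0.022, 1.10-fold, acrophase ZT16.9) in diabetic retinas. Its adjusted p was 0.0854 with edgeR and 0.0163 with DESeq2, and the permutation-based rank test gave p = 0.0072. In control retinas its amplitude was 0.036 (SE 0.022, adjusted p = 0.502). For Ndp, Tspan12, Ctnnb1, Axin2 and Lef1 the adjusted p was 0.449 or higher in control and 0.327 or higher in diabetic retinas. Their amplitudes ran from 0.0018 to 0.095 in control and from 0.031 to 0.15 in diabetic retinas. The ligand Ndp, with 0.095 (SE 0.076) and 0.052 (SE 0.064), did not pass, and both amplitudes were within 2 SE of 0.

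**Figure D4:**
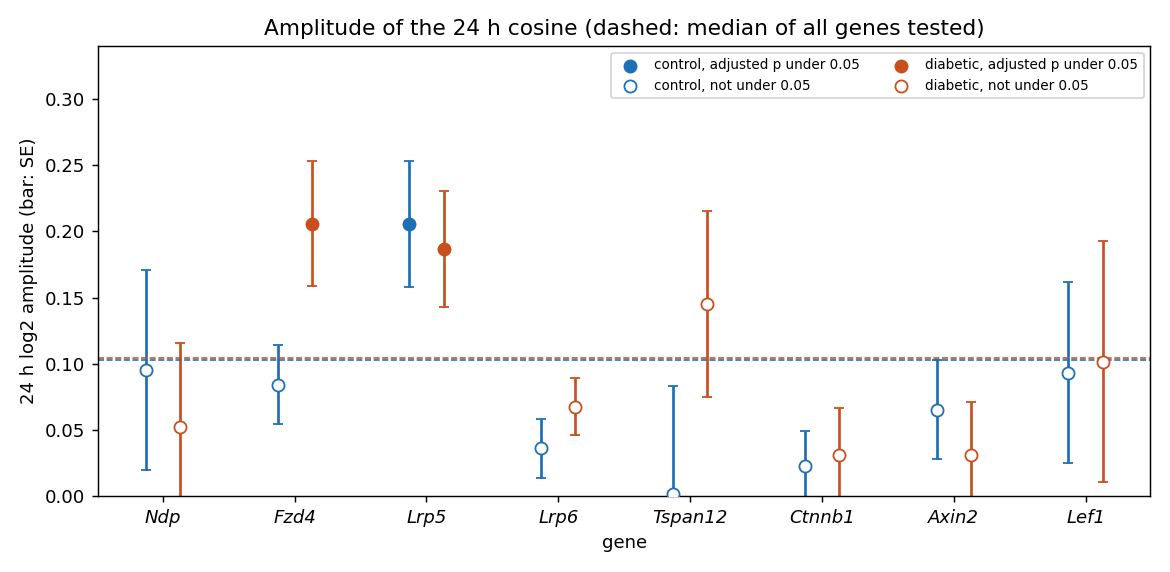
Log2 amplitude of the 24 h cosine with its SE (cut at 0) for each member and genotype, filled where the adjusted p was under 0.05, with the median of all genes tested as dashed lines. Only Lrp5 in both genotypes and Fzd4 in diabetic retinas are filled, with amplitudes of 0.19 to 0.21.

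A difference in rhythm between the genotypes was called for 0 of the 8 members and for 0% of all genes tested, with edgeR and with DESeq2. At an unadjusted p under 0.05 there were 657 genes (3.44%) with edgeR, and 1 member, Fzd4. Acrophase differences of members without a rhythm, such as 7.24 h for Ndp with acrophase SEs of 3.02 h and 4.68 h, cannot be read as shifts.

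Some members followed each other over the 58 libraries, in 28 relations computed. The strongest was between Tspan12 and Ctnnb1 (r = 0.595, rho = 0.599, permutation p = 1e-05 for both, the smallest they can give, adjusted p = 0.00028), and Ndp rose with Tspan12 (r = 0.457, rho = 0.462, permutation p = 3e-04 and 0.00039, adjusted p = 0.0017 and 0.0029). Lrp5 rose with Axin2 (r = 0.541, rho = 0.524, permutation p = 4e-05 and 7e-05, adjusted p = 0.00056 and 0.00098), and Fzd4 with Lrp6 (r = 0.466, rho = 0.414, permutation p = 0.00031 and 0.0013, adjusted p = 0.0017 and 0.0070). Lrp5 also rose with Lef1 (r = 0.349, rho = 0.376, permutation p = 0.0065 and 0.0039, adjusted p = 0.0258 and 0.0182). Tspan12 and Axin2 moved in opposite directions (r = -0.483, rho = -0.445, permutation p = 1e-04 and 0.00041, adjusted p = 0.00093 and 0.0029), as did Ndp and Axin2 (r = -0.353, rho = -0.352, permutation p = 0.0061 and 0.0066, adjusted p = 0.0258 and 0.0264). Without the 2 farthest libraries r was 0.590, 0.440, 0.429, 0.312, 0.372, -0.515 and -0.243 for these pairs in turn, and within groups 0.636, 0.499, 0.636, 0.272, 0.306, -0.582 and -0.370. The points share their library, and Axin2 (54.6% GC, r = 0.784, rho = 0.686, permutation p = 1e-05 for both) and Tspan12 (40.5% GC, r = -0.502, rho = -0.409, permutation p = 4e-05 and 0.0014) moved with the GC trend, Axin2 in the direction of Lrp5 and Tspan12 in the opposite one, and the part of this trend in these correlations was not tested. Lef1 rose with the GC trend by rank (rho = 0.337, permutation p = 0.010, adjusted p = 0.0201), though not by Pearson's r (0.271, permutation p = 0.0417, adjusted p = 0.0835).

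Most members rose with the summed markers of 1 or more cell types, in 56 relations computed, and several with the same markers. The part of the GC trend of the libraries in these relations was not tested. Ndp rose with the summed level of the 7 pericyte markers (r = 0.566, rho = 0.493, permutation p = 1e-05 and 0.00011, adjusted p = 0.00037 and 0.0021), as did Tspan12 (r = 0.573, rho = 0.594, permutation p = 2e-05 for both, adjusted p = 0.00037 and 0.0011). Within groups these were 0.617 and 0.584, and without the 2 farthest libraries 0.466 and 0.575. Ctnnb1 rose with the pericyte markers too (r = 0.408, rho = 0.383, permutation p = 0.0017 and 0.0036, adjusted p = 0.0132 and 0.0196), with 0.498 within groups and 0.398 without the 2 farthest libraries. Tspan12 and Ctnnb1 rose with the microglia markers (r = 0.387 and 0.382, rho = 0.373 and 0.374, permutation p = 0.0028 and 0.0034 for r and 0.0042 for both rho, adjusted p = 0.0191 for both r and 0.0196 for both rho), with 0.424 and 0.528 within groups and 0.356 and 0.276 without the 2 farthest libraries.

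Lrp5 and Axin2 both rose with Müller glia and with rod markers. Both also moved with the GC trend of the libraries (Pearson's r = 0.691 and 0.784), whose part in these relations was not tested. For Lrp5 and the 9 Müller glia markers r was 0.532 and rho 0.498 (permutation p = 2e-05 and 1e-04, adjusted p = 0.00037 and 0.0021), with 0.488 within groups and 0.464 without the 2 farthest libraries. For Lrp5 and the rod markers r was 0.481 and rho 0.422 (permutation p = 0.00016 and 0.0012, adjusted p = 0.0018 and 0.0131), with 0.564 within groups and 0.373 without the 2 farthest libraries. For Axin2 r was 0.450 with Müller glia and 0.487 with rod markers (rho 0.388 and 0.384, permutation p = 0.00043 and 0.00014 for r and 0.0025 and 0.0033 for rho, adjusted p = 0.0040, 0.0018, 0.0173 and 0.0196), with 0.434 and 0.596 within groups and 0.417 and 0.444 without the 2 farthest libraries. Axin2 fell with the pericyte markers by rank (rho = -0.331, permutation p = 0.0107, adjusted p = 0.0463), though not by Pearson's r (-0.265, permutation p = 0.0443, adjusted p = 0.146), with -0.350 within groups and -0.334 without the 2 farthest libraries. Axin2 and the endothelial markers gave r = 0.373 and rho = 0.308 (permutation p = 0.0039 and 0.0193, adjusted p = 0.020 and 0.0719), with 0.426 within groups and 0.244 without the 2 farthest libraries. Lef1 rose with the rod markers (r = 0.383, rho = 0.403, permutation p = 0.0031 and 0.0018, adjusted p = 0.0191 and 0.0146), with 0.310 within groups and 0.322 without the 2 farthest libraries. The correlation of Fzd4 with the 10 endothelial markers was not significant (r = -0.165, rho = -0.0809, permutation p = 0.216 and 0.546, adjusted p = 0.434 and 0.718, r = -0.172 without the 2 farthest libraries and -0.170 within groups). The endothelial sum itself lay between 351 and 418 CPM (control) or 347 and 430.4 CPM (diabetic). Kdr and Flt1 weighed most in this sum, with means of 2804 and 2010 normalized counts against 184 or fewer for each other endothelial marker. The sum thus says little about the other markers of its list.

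By the shape of the 12 group means, the genes most like each member were named as a description (Pearson's r of log2 CPM). For Fzd4 they were E230001N04Rik (0.911) and Dpysl3 (0.899), for Lrp5 Nfil3 (0.948) and Sh3pxd2b (0.946), and for Lrp6 Txndc16 (0.958) and Ikbip (0.932). For Ndp they were Ppp3r2 (0.893) and Gm37720 (0.882), and for Tspan12 Gm29650 (0.924) and Acads (0.916). For Ctnnb1 they were Ube2a (0.891) and Cdk5 (0.872), for Axin2 Usf1 (0.911) and Ilk (0.899) and for Lef1 Rdh11 (0.881) and Otx2 (0.857). Such values are high by selection among 19120 genes.

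Around the members, 97 other genes of the Wnt pathway were followed in 9 lists, of which 78 were tested. Over all time points 3 were higher and 1 lower in diabetic retinas (5.13%, against 2.99% of all genes tested), with a median log2 fold change of 0.031. No pathway gene passed at a single time point, 5 were rhythmic in control (6.41%, against 11%), 7 in diabetic retinas (8.97%, against 12.4%) and 2 of the 78 in both (against 6.01%). No difference in rhythm between the genotypes passed. The 4 genes called between the genotypes lost their call in 5 (Amer1), 7 (Fzd1), 9 (Rnf43) and 11 (Wnt4) of 15 or 16 alternative fits, with the same direction in each. Leaving out 1 library ended the call in 34 of 58 fits for Fzd1 (adjusted p up to 0.0795), 32 for Rnf43 (0.0744) and 35 for Wnt4 (0.0746), and for Amer1 in 1, without diabetic ZT17 replicate 5 (0.0515).

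Of 19 Wnt ligands, 9 were tested. Wnt4, a ligand with roles in kidney and synapse development, was higher in diabetic retinas (5.71 ± 1.82 against 7.98 ± 3.44 normalized counts, log2 fold change 0.50, SE 0.15, adjusted p = 0.0474), and Wnt5b was rhythmic in diabetic retinas (log2 amplitude 0.32, ZT16.1, adjusted p = 0.0029). In level per length Wnt5b was the highest of the 9 (1.48 RPKM) and Wnt4 the lowest (0.112 RPKM). Wnt2b and Wnt5a, after Wnt5b the highest (1.29 and 0.808 RPKM), did not pass (adjusted p = 0.456 and 0.868). The remaining 10 ligands, including Wnt3a and Wnt7b, were below the filter. Of 5 genes of ligand processing, Wls, which carries Wnt proteins to the cell surface, was rhythmic in diabetic retinas (0.50, ZT16.1, adjusted p = 0.0026), while Porcn, Mesd and Notum passed no test. The rhythm calls of Wls and Wnt5b ended with the summed pigment epithelium markers as a covariate.

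The other 9 Frizzled receptors held 1 that passed. Fzd1 was higher in diabetic retinas (112 ± 24.9 against 135 ± 27.5 normalized counts, log2 fold change 0.26, SE 0.078, adjusted p = 0.0457), and the median over the 9 was 0.11. Fzd5, the highest of them at 18.6 RPKM, had a log2 fold change of 0.043 (adjusted p = 0.510), Fzd3 of -0.046 (0.702) and Fzd10 of 0.10 (0.435). None of the 6 other coreceptors and partners passed, among them Ryk (10.6 RPKM), Adgra2, which with Reck receives Wnt7 signals in brain vessels, Reck itself and Ptk7. Of the 6 tested genes of the R-spondin axis, which sets the number of receptors at the cell surface, the ubiquitin ligase Rnf43 was lower in diabetic retinas (59.1 ± 7.19 against 52.2 ± 7.45, log2 fold change -0.18, SE 0.055, adjusted p = 0.0466), and its paralog Znrf3 (0.020, adjusted p = 0.849), Lgr4 and Lgr5 did not pass.

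Of 15 secreted inhibitors 9 were tested, of which 1 was rhythmic in control (against 11% of all genes tested) and 3 in diabetic retinas (against 12.4%). Sostdc1 was rhythmic in both genotypes (log2 amplitude 0.40 in control and 0.55 in diabetic retinas, ZT16.6 and ZT16.7, adjusted p = 0.0481 and 0.0094), and Sfrp1 (0.45, ZT16.4, adjusted p = 0.00016) and Sfrp5 (1.29, ZT16.6, adjusted p = 0.00020) in diabetic retinas. In control retinas the fitted amplitude of Sfrp1 was larger, 0.65 (SE 0.21, ZT20.1), and did not pass (adjusted p = 0.109), that of Sfrp5 was 0.41 (SE 0.22, adjusted p = 0.415), and neither difference in rhythm between the genotypes passed its own test (adjusted p = 0.9998). The control libraries of Sfrp1 spread widely, with 81.5 ± 73.1 normalized counts against 60.5 ± 16.7 in diabetic retinas. The 5 rhythmic pigment epithelium markers had acrophases at these hours too (ZT15.5 to ZT16.6 in diabetic retinas). With the summed level of the 7 markers as a covariate the amplitudes in diabetic retinas were 0.12 for Sostdc1 (adjusted p = 0.866), 0.33 for Sfrp1 (0.0842), 0.63 for Sfrp5 (0.190), 0.10 for Wls (0.827, whose call was also lost without ZT5 at 0.0522) and 0.25 for Wnt5b (0.227), and none of the 5 passed, nor did Sostdc1 in control retinas (0.17, adjusted p = 0.633). The control call of Sostdc1 was lost in 10 of 15 alternative fits and in 19 of 30 fits without 1 library (adjusted p up to 0.1003), and its diabetic call in 2 of 15 and in 0 of 28. Dkk3, which is the most abundant of them at 187 RPKM and a Müller glia gene, did not pass (adjusted p = 0.0978 or higher).

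Among 16 cytoplasmic transducers Amer1, a scaffold that binds β-catenin and Apc, was higher in diabetic retinas (485 ± 38.8 against 525 ± 44.4 normalized counts, log2 fold change 0.12, SE 0.032, adjusted p = 0.0294), and Nkd1, a feedback inhibitor that binds Dishevelled, was rhythmic in control retinas (0.19, ZT19.3, adjusted p = 0.0282). The kinases Gsk3b and Gsk3a, at 41.1 and 40.3 RPKM, did not pass. Of 13 nuclear partners the corepressors Tle4 (0.081, ZT19.3, adjusted p = 0.0316) and Tle3 (0.19, ZT17.7, adjusted p = 0.0479) were rhythmic in control and the β-catenin cofactor Bcl9 (0.13, ZT17.8, adjusted p = 0.0344) in diabetic retinas, and Aes passed no test. These 4 rhythm calls were close to the threshold. Leaving out 1 library ended the call of Tle3 in 21 of 30 fits (adjusted p up to 0.141), of Tle4 in 7 of 30 (0.0773), of Nkd1 in 5 of 30 (0.0711) and of Bcl9 in 10 of 28 (0.0988), and of 16 other alternative fits 6, 7, 6 and 7 ended it.

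Of the 5 endothelial genes that respond to Norrin in retinal vessels, none passed the test between the genotypes, with a median log2 fold change of -0.10. As the list holds barrier genes and Plvap, a marker of leaky vessels, this median does not measure the signal. Slc38a5 had the largest estimate, -0.46 (SE 0.20, edgeR adjusted p = 0.233), at low counts (5.81 ± 2.73 in control and 4.34 ± 2.33 in diabetic retinas). Cldn5, a tight junction protein of the blood-retina barrier, was rhythmic in both genotypes (log2 amplitude 0.39 at ZT22.7 in control, adjusted p = 3.0e-05, and 0.45 at ZT22.9 in diabetic retinas, adjusted p = 0.00077), with 113 ± 24.6 and 105 ± 30.8 normalized counts. Of 16 alternative fits 0 ended its control call and 1 its diabetic call, without ZT9 (adjusted p = 0.0613). Plvap, a marker of leaky vessels (70.9 ± 20.02 and 70.1 ± 17.2), Mfsd2a, a barrier lipid transporter (32.7 ± 6.95 and 33.5 ± 5.90), and the transcription factor Sox17 (35.3 ± 7.58 and 31.7 ± 6.27) passed no test.

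**Figure D5:**
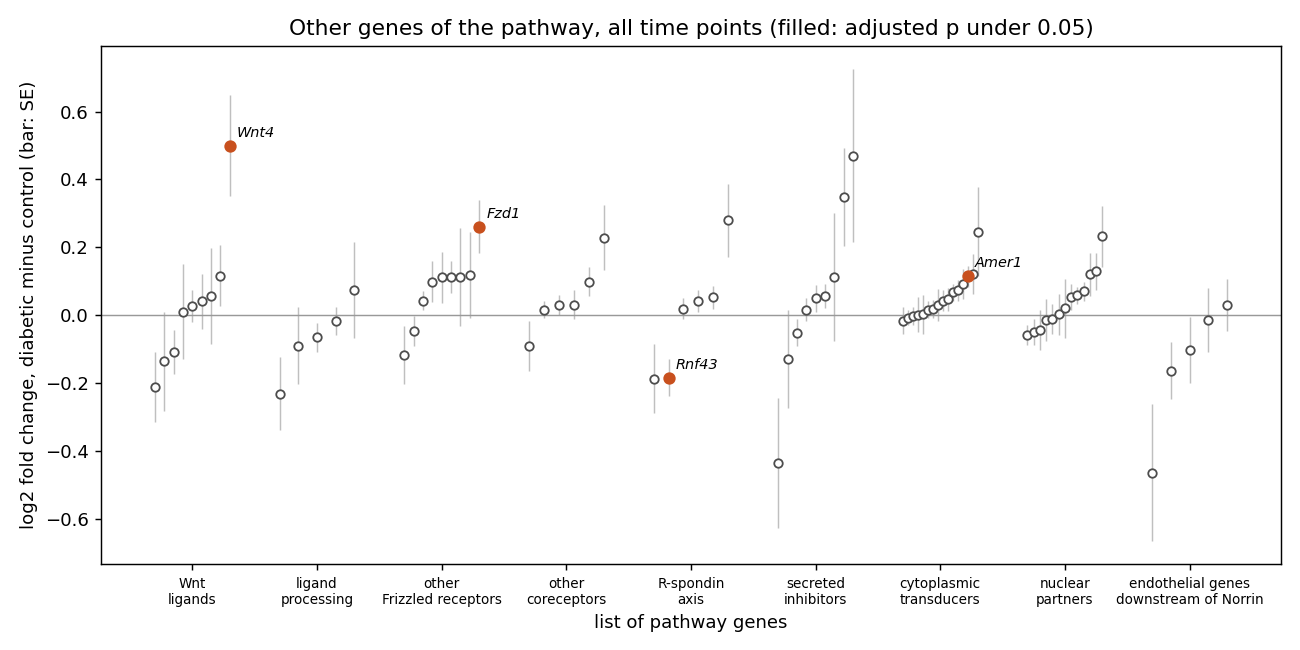
Log2 fold change of diabetic minus control retinas over all time points, with its SE, for the 78 tested genes of 9 pathway lists, each point 1 gene. The 4 filled points passed the test: Wnt4 at 0.50, Fzd1 at 0.26 and Amer1 at 0.12 were higher, and Rnf43 at -0.18 was lower in diabetic retinas.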

How the data were processed

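Retinal RNA was depleted of ribosomal RNA and sequenced as paired ends. The authors aligned reads with STAR 2.7.4a to GRCm38 (Gencode M15) and deposited raw read counts per gene symbol from HTSeq 0.11.1, after FastQC, and analysed them with DESeq2 1.26.0. The deposited counts were used as they stand, with groups and times from the labels. Of 52459 symbols, 15226 had no read and 19120 had a median above 4 normalized counts and were tested. Library totals ran from 7773117 to 22147398 counts, which limits the precision of low genes to counting error and the spread between retinas.

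Genotypes and 24 h cosines were tested with the quasi-likelihood test of edgeR 4.0.16 (TMM, R 4.3.3), and p-values were adjusted by Benjamini-Hochberg over all genes tested (threshold 0.05). Per time point contrasts came from a fit of all 12 groups. DESeq2 1.42.0 and a re-implemented rank test were alternatives, as were other scalings and filters, a replicate block, covariates and leaving out libraries or times. The rank test used 30 waveforms and 200000 shuffled series and called genes at an unadjusted p under 0.05. It also asked for a fold above 1.25 between the highest and the lowest library, where the study used a predicted fold. Normalized counts are counts over DESeq2 size factors, and RPKM used merged exons of Gencode M21 (48082 symbols matched). Correlations were tested with 100000 permutations, two-sided. Scripts were tested on simulated data. The members and gene lists were chosen with earlier results of these data known. Within lists, the genes named are those past the threshold and the most highly expressed ones, and all 5 of the endothelial list.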

Additional observations from a re-analysis of the deposited data

Results flagged for a closer look

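A library stood apart from the rest of its group in 2 of 96 groups (8 members in 12 groups), by Dixon's criterion, which chance meets in about 1 in 20 groups. Axin2 in control ZT5 replicate 1 was the lowest of 6 with 558.1 normalized counts, next to 632.2, a gap of 0.628 of the range. Ctnnb1 in diabetic ZT21 replicate 1 was the highest of 5 with 4258 normalized counts, next to 3878, a gap of 0.724 of the range.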

How the results depend on the processing

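The alternatives with covariates, without whole time points, without the 3 lens libraries and without the 3 libraries of highest GC slope were chosen after the data were seen. Over all time points the 572 genes called became 1383 with the GC slope as a covariate, 888 as the mean of the contrasts within time points, and 322, 267, 357, 239 and 225 without ZT1, ZT5, ZT9, ZT17 and ZT21. The 1 member called became 0 without the filter, with the replicate block, without ZT9, ZT13, ZT17 or ZT21 and without the 3 highest GC slopes, and the cause was not tested. Leaving out 1 library gave 431 to 611 genes and 0 to 1 member.

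At ZT1 the 2 genes called became 0 with the 2 groups alone, 6 with DESeq2, 7 with the GC slope, 1 with a median above 50, 1 without the filter and 4 without the lens libraries (0 to 4 without 1 library). At ZT5 the 4 genes became 28 with the groups alone, 32 with DESeq2, 23 with the GC slope, 9 with a median above 50, 2 with the pigment epithelium covariate and 10 with the replicate block (2 to 8). At ZT9 the 1 gene became 5 with the groups alone, 4 with DESeq2, 7 with the GC slope, 3 without the filter, 2 with the pigment epithelium covariate or the replicate block and 0 with a median above 50, without the highest GC slopes or without the lens libraries (0 to 2). At ZT13 the 0 genes became 1 with DESeq2 and 2 with the GC slope (0 to 1). At ZT17 the 32 genes became 0 with the groups alone, 88 with DESeq2, 274 with the GC slope, 56 with a median above 50, 60 with the replicate block and 9 without the highest GC slopes (3 to 96). At ZT21 the 0 genes became 2 with DESeq2, 22 with the GC slope and 1 without the filter (0 to 1).

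In control retinas the rank test called 4172 rhythmic genes, at an unadjusted p under 0.05 and above its minimum fold. The cosine gave 4851 there at an unadjusted p under 0.05. The 2096 genes that the cosine called by adjusted p became 604 without ZT17 and 932 without ZT5 (1664 to 3031 without 1 library). The 1 member became 0 for any time difference and without ZT5 or ZT17, and 2 without ZT9. In diabetic retinas 2366 became 1407 for any time difference and 1056, 1129 and 1342 without ZT17, ZT21 and ZT9 (1819 to 3056). The rank test called 4565 there by the same unadjusted rule, where the cosine gave 5065 at an unadjusted p under 0.05. The 2 members became 1 for any time difference, with the pigment epithelium covariate and without ZT1, ZT5, ZT9 or ZT17. The rank test called Lrp6 in diabetic retinas as well as Lrp5 and Fzd4, and Lrp6 also passed there with DESeq2. Leaving out any 1 library kept the rhythm calls of Lrp5 and Fzd4. The 0 genes of different rhythm became 3 without the filter (0 to 1 without 1 library).

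The log2 fold change of Fzd4 at ZT1, which did not pass, turned to -0.0048 with the groups alone, -0.0053 with DESeq2, -0.0035 with DESeq2 size factors, -0.0039 without the filter, -0.00076 with the replicate block and -0.0012 without the highest GC slopes (-0.073 to 0.054 without 1 library). Fzd4 at ZT21 ranged from -0.0082 to 0.11 and Ctnnb1 over all time points from -0.00077 to 0.019 without 1 library, and Ctnnb1 was -0.0031 without ZT5. Replicate numbers were not taken as pairs, because the labels name no shared animal or batch. The correlation of deviations was over 0.1 in 15 of 26 pairs of the same number (-0.219 to 0.579, median 0.126), which is no reason against pairing. Pairing remains possible: 15 of 26 correlated best with their own number, and at ZT13 all 4 pairs were over 0.1 (0.117 to 0.289), where the block left 0 genes called. With the replicate block, the log2 fold change of Fzd4 over all time points was 0.15 (edgeR adjusted p = 0.0749). Lef1, Ndp and Tspan12 had the fewest reads (62.0, 75.3 and 95.1 per library) and the largest SEs between the genotypes (0.080, 0.070 and 0.079), and the parts of counting error and of the spread between retinas were not separated.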
